A study of Mus musculus with 6 samples.

Results

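Genes of ion channels, ion pumps and connexins were examined in the hearts of *db/db* mice given an FGF1 variant, FGF1ΔHBS, or saline. The members were all genes of the deposited table whose symbol begins as those of these families do, from Kcn, Cacn and Scn to Atp1, Atp2 and Gj, with pseudogenes left out. The table analysed here held 36 of them among 4132 genes, whereas 241 protein-coding genes of the GENCODE M21 annotation carry such symbols. The calcium channel *Cacna1c*, the release channel *Ryr2* and the connexin *Gja1* were among those not analysed here. All mice were lepr-/-, that is, without a functional leptin receptor, and become obese and diabetic. From 10 weeks of age, 3 mice received FGF1ΔHBS intraperitoneally at 0.5 mg/kg every other day for 16 weeks, and 3 vehicle mice received saline (labelled as the model group). Hearts were taken at 26 weeks of age, and no lean group was sequenced in the samples analysed here. Each value is an FPKM, the fragments on a gene scaled by the length of its transcript and by the number of fragments mapped in the library, so levels can be set beside each other between genes. FPKM values do not give read numbers. The spacing of the lowest values put the depth of the other libraries at 1.01 to 1.21 times that of vehicle replicate 1.

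The heartbeat rests on ions that cross the cell membrane in a fixed order. Sodium and then calcium enter to depolarize the myocyte and trigger contraction, and potassium leaves through several kinds of channel to repolarize it. In the mouse ventricle, repolarization is fast and leans on a transient outward current carried by Kv4 channels. The inward rectifier Kir2.1 sets the resting potential, the sodium pump keeps the gradients, and the calcium pump SERCA2 refills the internal store between beats. A smaller or slower potassium current, as described in diabetic hearts, lengthens the action potential.

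The promoters of 5 of these genes, which encode the Kv4, ERG, Kir2.1 and HCN2 channels, are shown because their levels separated the groups. Each gene was higher in every mouse given FGF1ΔHBS than in any vehicle mouse. None of them is called changed, with limma adjusted p-values of 0.116 to 0.269. Each line gives the 250 bases before the RefSeq start of the gene on GRCm38.p6, read 5′ to 3′ on the strand of the gene, with motif matches in capitals.
Kcnd2, chr6:21215096-21215345, plus strand: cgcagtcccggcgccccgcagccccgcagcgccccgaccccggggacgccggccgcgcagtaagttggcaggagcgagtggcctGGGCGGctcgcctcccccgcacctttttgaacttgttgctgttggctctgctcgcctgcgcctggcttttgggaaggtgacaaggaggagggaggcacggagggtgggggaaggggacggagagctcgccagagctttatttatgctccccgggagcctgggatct
Kcnd3, chr3:105451640-105451889, plus strand: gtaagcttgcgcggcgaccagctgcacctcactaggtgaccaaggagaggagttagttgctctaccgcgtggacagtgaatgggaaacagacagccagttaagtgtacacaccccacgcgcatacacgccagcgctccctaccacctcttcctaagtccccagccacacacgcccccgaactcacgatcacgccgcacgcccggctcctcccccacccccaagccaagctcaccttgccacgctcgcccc
Kcnh2, chr5:24329592-24329841, minus strand: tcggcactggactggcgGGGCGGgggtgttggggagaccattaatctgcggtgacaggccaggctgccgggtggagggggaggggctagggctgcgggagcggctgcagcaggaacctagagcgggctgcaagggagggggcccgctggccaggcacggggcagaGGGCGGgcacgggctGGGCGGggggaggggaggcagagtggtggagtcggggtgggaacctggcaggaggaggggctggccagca
Kcnj2, chr11:111065914-111066163, plus strand: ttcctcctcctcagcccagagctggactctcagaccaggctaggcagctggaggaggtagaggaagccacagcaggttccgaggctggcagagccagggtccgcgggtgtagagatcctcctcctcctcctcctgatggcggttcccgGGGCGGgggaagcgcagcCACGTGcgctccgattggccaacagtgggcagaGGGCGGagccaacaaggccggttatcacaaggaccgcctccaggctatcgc
Hcn2, chr10:79716384-79716633, plus strand: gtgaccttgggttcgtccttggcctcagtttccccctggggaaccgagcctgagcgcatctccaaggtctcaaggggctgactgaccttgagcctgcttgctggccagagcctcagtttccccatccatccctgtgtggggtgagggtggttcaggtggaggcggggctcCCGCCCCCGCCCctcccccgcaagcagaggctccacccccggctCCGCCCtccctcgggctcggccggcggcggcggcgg
Capitals mark the letters GGGCGG (GC box) or its reverse complement in *Kcnd2*, *Kcnh2*, *Kcnj2* and *Hcn2*, and CACGTG (E-box) in *Kcnj2*. Both strands were searched for these and for the TATA box (TATAAA), the cyclic AMP response element (TGACGTCA), the AP-1 site (TGANTCA) and the element that Nur77 binds as a monomer (AAAGGTCA). Of the 32851 RefSeq windows of the same length, 32.7% held the GC box, 6.02% the E-box, 12.4% the TATA box, 6.75% the AP-1 site, 1.55% the cyclic AMP response element and 1.34% the Nur77 element. *Kcnd2* held 1 match of GGGCGG, 166 bases before the start. *Kcnj2* held 2 matches of GGGCGG, 102 and 51 bases before the start, and 1 of CACGTG at 84 bases. *Kcnh2* and *Hcn2* held 3 matches of GGGCGG each, and *Kcnd3* held none of the 6 motifs. The GC box is not particular to these genes. It was also found in windows of members whose groups overlapped, such as *Atp1b1*, *Ano6* and *Kcnj4*, and was absent from others, such as *Trpc2* and *Kcna6*. The GC content of the windows was 68.8% in *Kcnd2*, 62.8% in *Kcnd3*, 73.6% in *Kcnh2*, 65.6% in *Kcnj2* and 70.4% in *Hcn2*, against a median of 52.4% over all windows. The start that RefSeq gives for *Kcnh2* lies 22013 bases inside the gene of the GENCODE annotation, so the window belongs to a shorter transcript. A match is a description of the letters and does not show a bound site. Of the 36 genes, 27 had a window in the RefSeq table. *Cngb3* and *Scn3a* also separated the groups but had no window, and so are not shown.

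Levels spanned a wide range. *Atp2a2*, which encodes SERCA2, had a mean of 2412 FPKM over the 6 mice, and *Atp1b1*, the beta 1 subunit of the sodium pump, had 113. All other members lay at 26.7 FPKM or below in every mouse. *Kcnh2* (mean 20.7 FPKM) and *Kcnj2* (9.37 FPKM) stood highest among the potassium channels, followed by *Kcnd3* (4.10 FPKM), *Kcnn1* (3.78 FPKM) and *Kcnd2* (3.64 FPKM). The ranges of *Kcnd3*, *Kcnn1* and *Kcnd2* over the mice overlapped, so their order is not set beyond the spread. The 22 members with a mean under 1 FPKM were at 0.00218 to 0.731 FPKM and were not tested.

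**Figure D1:**
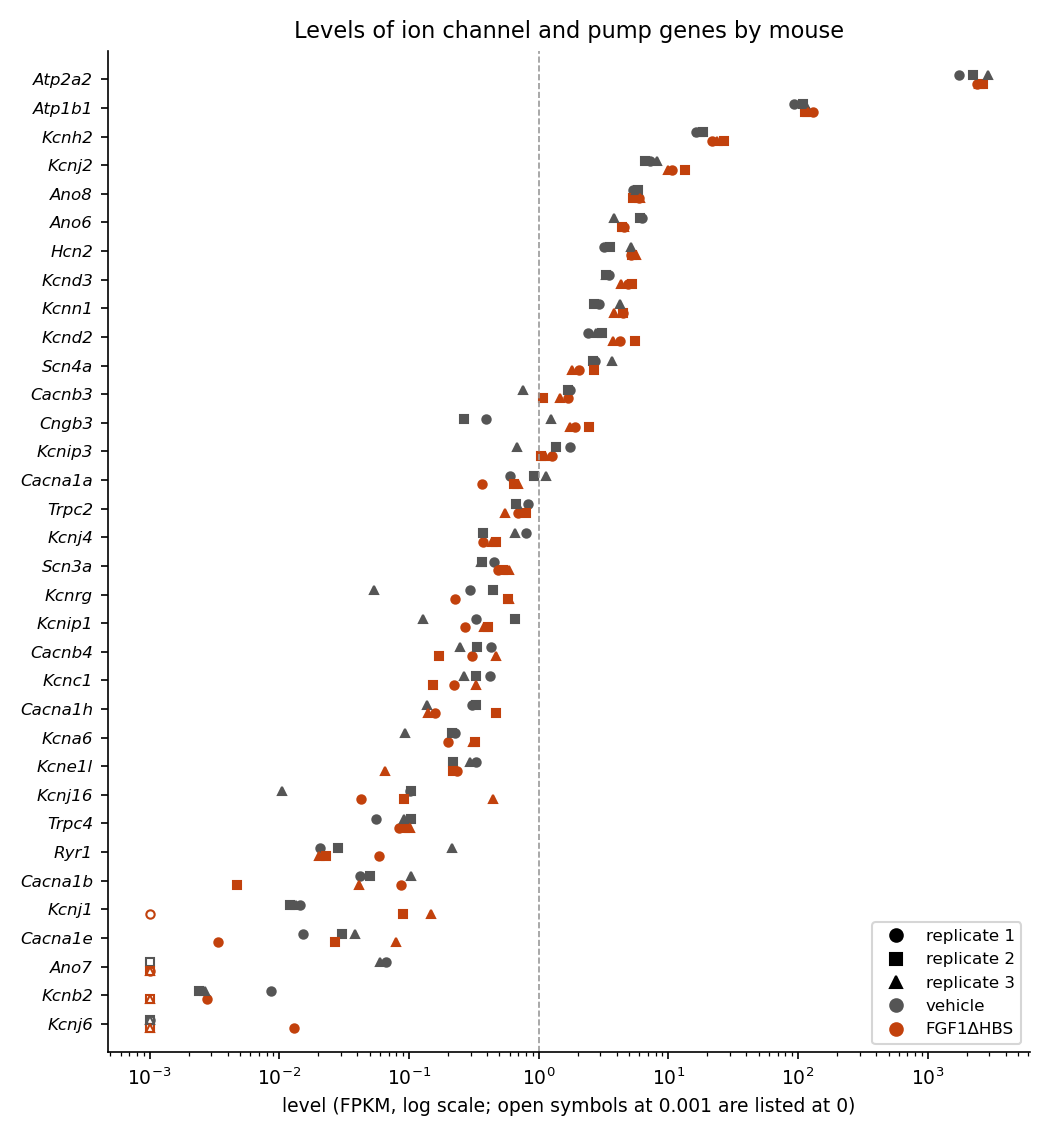
Level of 34 of the genes in each mouse (FPKM, log scale), with vehicle in grey, FGF1ΔHBS in orange and a symbol for each replicate. The dashed line marks the minimum mean of 1 FPKM for testing, open symbols are values listed at 0, and *Atp2a2* and *Atp1b1* stand far above the rest.

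Of the 14 members tested, 6 were higher in every treated mouse than in any vehicle mouse, namely *Kcnd2*, *Kcnd3*, *Kcnh2*, *Kcnj2*, *Hcn2* and *Cngb3*. Their mean FPKM with FGF1ΔHBS was 1.35 to 3.21 times that of vehicle. No tested member was lower in this sense. By family, the 6 were 3 of the 6 voltage-gated potassium channels listed, 1 of the 5 inward rectifiers and both cyclic nucleotide gated channels. The limma test covered the 14 members that reached a mean of 1 FPKM, on log2(FPKM + 1), in a fit over all 2041 genes that met this minimum. None of the 14 passed an adjusted p-value of 0.05 (Benjamini-Hochberg), which 0.0980% of all genes tested did, so none is called changed. At an unadjusted p-value under 0.05, 6 of the 14 were higher, against 7.10% of all genes tested, and 0 were lower, against 10.0%. The groups did not overlap in 6 of 14 members, higher with FGF1ΔHBS, against 10.7% of all genes tested, and in 0 of 14, lower, against 13.6%. The log2 fold change was positive in 11 members and negative in 3, with a median of 0.26, whereas the median over all genes tested was -0.021. The minimum was set on the mean of all 6 mice, so that *Cngb3* met it through the treated group. Vehicle replicate 3 was the vehicle mouse farthest from the group median in 9 of these 14, vehicle replicate 1 in 5 and vehicle replicate 2 in 0. Among the treated mice, FGF1ΔHBS replicate 2 was farthest from its group median in 9, replicate 3 in 3 and replicate 1 in 2. These counts were not made over all genes tested, so they do not set either mouse or the members apart. Without the minimum, 5 of the 36 members were at an unadjusted p-value under 0.05, all higher, against 5.18% of all 4132 genes higher and 6.63% lower in that fit. Fewer cells of a type and less RNA per cell cannot be told apart in whole hearts.

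**Figure D2:**
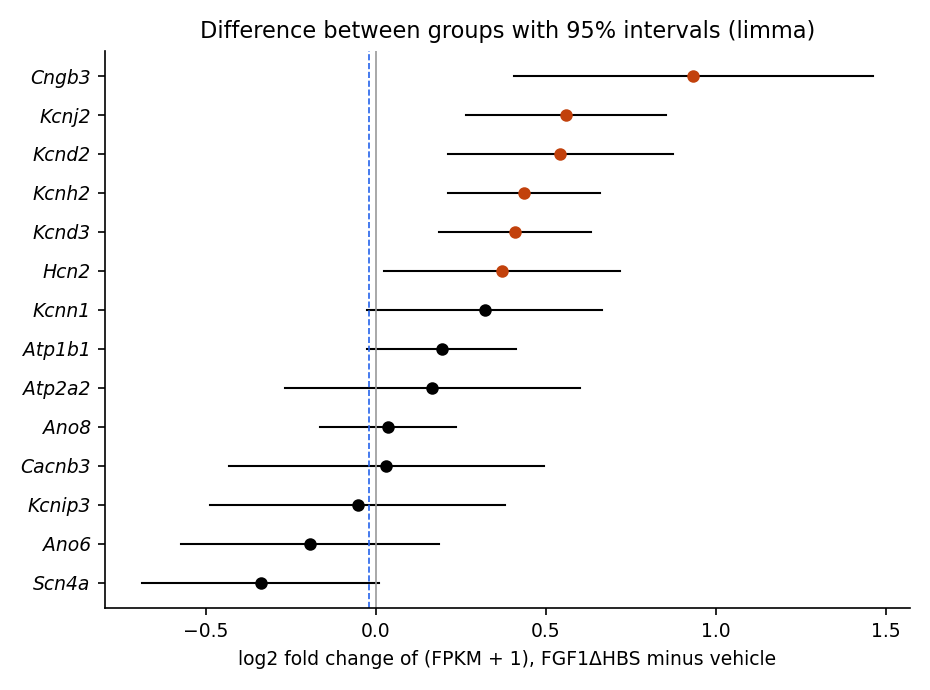
Log2 fold change of (FPKM + 1), FGF1ΔHBS minus vehicle, for the 14 genes tested by limma, with 95% intervals. The 6 orange points, with an unadjusted p-value below 0.05, have intervals above 0, and the dashed blue line is the median of all genes tested (-0.021).

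*Kcnd2* and *Kcnd3* encode Kv4.2 and Kv4.3, the pore subunits of the fast transient outward current. *Kcnd2* (chromosome 6 of GRCm38, 21215503 to 21729805) was at 2.43, 3.07 and 2.79 FPKM in vehicle replicates 1 to 3 and at 4.26, 5.55 and 3.74 FPKM in FGF1ΔHBS replicates 1 to 3. The lowest treated mouse was above the highest vehicle mouse, and FGF1ΔHBS replicate 2 stood highest. The vehicle mean was 2.76 ± 0.324 FPKM and the FGF1ΔHBS mean 4.52 ± 0.929 FPKM (SD, n = 3 each), a log2 fold change of 0.54 ± 0.14 (SE, limma adjusted p = 0.122). *Kcnd3* (chromosome 3, 105452330 to 105674002) was at 3.51, 3.30 and 3.31 FPKM with vehicle and at 4.92, 5.25 and 4.30 FPKM with FGF1ΔHBS. Its vehicle values lay close together and all below the treated ones, with FGF1ΔHBS replicate 2 again the highest. The vehicle mean of 3.38 ± 0.117 FPKM stood against 4.82 ± 0.483 FPKM with FGF1ΔHBS (SD, n = 3 each), a log2 fold change of 0.41 ± 0.0945 (SE, limma adjusted p = 0.116). Each gene separated the groups completely, with an exact permutation p = 0.1 (two-sided), which is the lowest that groups of 3 and 3 can reach. Within a mouse, *Kcnd2* was at 0.691, 0.930 and 0.842 times the level of *Kcnd3* with vehicle and at 0.865, 1.06 and 0.870 times with FGF1ΔHBS. These ratios overlapped between the groups. On the log2 scale of (FPKM + 1) the ratio differed by 0.13 (vehicle SD 0.16, FGF1ΔHBS SD 0.13, two-sided exact permutation test, p = 0.4). With a pseudocount of 0.1 the difference was 0.18. This ratio was chosen after the values were seen.

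**Figure D3:**
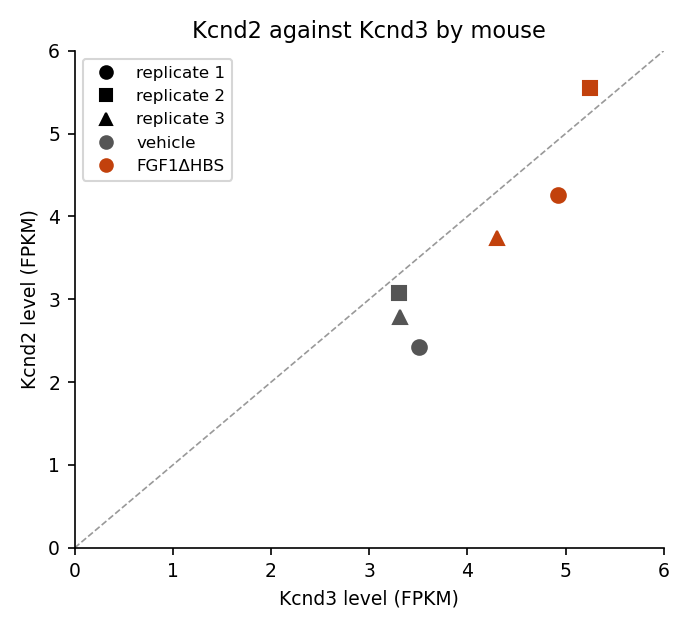
Level of *Kcnd2* against that of *Kcnd3* in each mouse (FPKM), with equal levels on the dashed line. The 3 treated mice lie above and to the right of the 3 vehicle mice, and *Kcnd2* exceeds *Kcnd3* in FGF1ΔHBS replicate 2.

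*Kcnh2* encodes the ERG channel of the rapid delayed rectifier current, and *Kcnj2* encodes Kir2.1. *Kcnh2* (chromosome 5, 24319589 to 24351604) was at 16.3, 18.5 and 17.4 FPKM in the vehicle mice and at 21.6, 26.7 and 23.6 FPKM in the treated mice. The gap between the groups was wider than the whole spread of the vehicle mice. Vehicle mice averaged 17.4 ± 1.14 FPKM and treated mice 24.0 ± 2.59 FPKM (SD, n = 3 each), a log2 fold change of 0.44 ± 0.0949 (SE, limma adjusted p = 0.116). *Kcnj2* (chromosome 11, 111066164 to 111076821) was at 7.30, 6.64 and 8.16 FPKM with vehicle and at 10.7, 13.4 and 9.97 FPKM with FGF1ΔHBS. As for the Kv4 genes and *Kcnh2*, FGF1ΔHBS replicate 2 had the highest value. Averages of 7.36 ± 0.762 and 11.4 ± 1.83 FPKM (SD, n = 3 each) gave a log2 fold change of 0.56 ± 0.12 (SE, limma adjusted p = 0.116). Both genes separated the groups (two-sided exact permutation test, p = 0.1). *Kcnj16*, the next inward rectifier gene upstream on the same chromosome (110968033 to 111027968), was below 0.5 FPKM in every mouse.

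**Figure D4:**
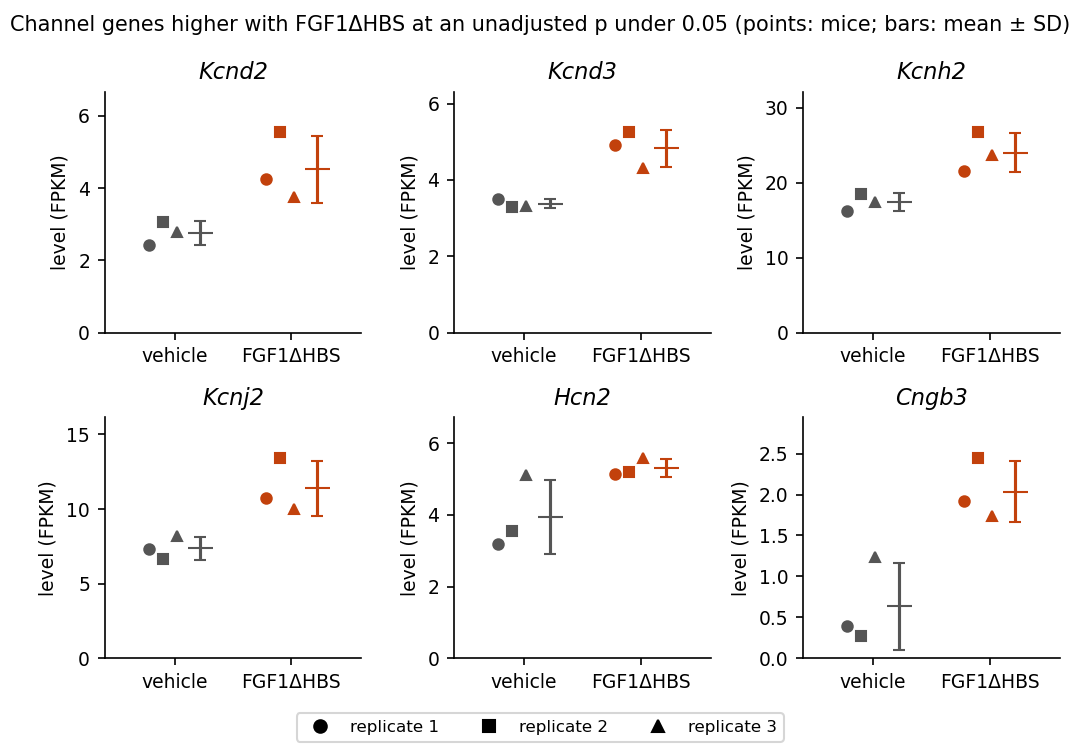
Levels (FPKM, linear axes from 0) of *Kcnd2*, *Kcnd3*, *Kcnh2*, *Kcnj2*, *Hcn2* and *Cngb3* in each mouse, with the mean and SD of each group of 3 beside the points. The groups do not overlap in any panel, and in *Hcn2* and *Cngb3* vehicle replicate 3 lies nearest to the treated mice.

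*Hcn2* encodes a channel opened by hyperpolarization and cyclic AMP, which carries the pacemaker current, and *Cngb3* encodes a subunit of the cyclic nucleotide gated channel known from cone photoreceptors. *Hcn2* (chromosome 10, 79716634 to 79736108) was at 3.18, 3.56 and 5.12 FPKM with vehicle and at 5.14, 5.21 and 5.60 FPKM with FGF1ΔHBS. Vehicle replicate 3 nearly reached the lowest treated mouse, while the other vehicle mice lay well below. Averages of 3.95 ± 1.03 and 5.32 ± 0.247 FPKM (SD, n = 3 each) gave a log2 fold change of 0.37 ± 0.15 (SE, limma adjusted p = 0.269). Without vehicle replicate 3 it was 0.53 with an adjusted p of 0.0323, and over the 13 alternatives the adjusted p lay between 0.0323 and 0.516. It was at an unadjusted p-value under 0.05 in only 7 of the 13, and not without the minimum or with any single mouse other than vehicle replicate 3 left out. *Cngb3* (chromosome 4, 19280850 to 19510623) was at 0.395, 0.266 and 1.24 FPKM with vehicle and at 1.92, 2.45 and 1.73 FPKM with FGF1ΔHBS. Its level was low in all mice, and vehicle replicate 3 again lay nearest to the treated group. *Cngb3* met the minimum mean of 1 FPKM only through the treated group, so its p-values do not weigh as those of the other genes. Averages of 0.634 ± 0.529 and 2.04 ± 0.372 FPKM (SD, n = 3 each) gave a log2 fold change of 0.93 ± 0.22 (SE, limma adjusted p = 0.116), on a scale that understates differences at such levels. With a pseudocount of 0.1 it was 1.76. Both genes separated the groups (two-sided exact permutation test, p = 0.1).

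The direction of these 6 genes was the same in every alternative run. Their groups did not overlap, so leaving out 1 mouse, or changing the pseudocount or the minimum, could not have reversed it. The size for *Kcnd2*, *Kcnd3*, *Kcnh2* and *Kcnj2* moved little when 1 mouse was left out. The log2 fold change lay between 0.41 and 0.64 for *Kcnd2*, 0.36 and 0.48 for *Kcnd3*, 0.36 and 0.51 for *Kcnh2*, and 0.44 and 0.64 for *Kcnj2*. The lowest value of each came without FGF1ΔHBS replicate 2. *Hcn2* ranged from 0.26, without vehicle replicate 1, to 0.53, and *Cngb3* from 0.77, without vehicle replicate 2, to 1.19. Without vehicle replicate 3, 3 members passed the adjusted threshold by limma, namely *Cngb3* (adjusted p = 0.0179), *Hcn2* (0.0323) and *Kcnj2* (0.0422). Over all genes, 82 passed in that fit (4.02%) against 2 with all mice. The genes tested there were still those that met the minimum over all 6 mice. *Cngb3* met it through the treated group, and the vehicle mice left in that fit were at 0.395 and 0.266 FPKM. Over the alternatives, the adjusted p-value by limma lay between 0.0814 and 0.353 for *Kcnd2*, 0.0741 and 0.353 for *Kcnd3*, 0.0633 and 0.346 for *Kcnh2*, 0.0422 and 0.346 for *Kcnj2*, and 0.0179 and 0.353 for *Cngb3*. The longest transcripts of *Kcnd2*, *Kcnd3*, *Kcnh2* and *Kcnj2* hold 44.4%, 49.1%, 61.3% and 41.2% GC, and those of *Hcn2* and *Cngb3* 65.4% and 39.9%. The median of all genes tested was 49.9%. After GC correction, an alternative chosen once the values were known, the log2 fold changes of the first 4 were 0.53, 0.42, 0.54 and 0.53. *Hcn2* was then at 0.51 and *Cngb3* at 0.90.

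**Figure D5:**
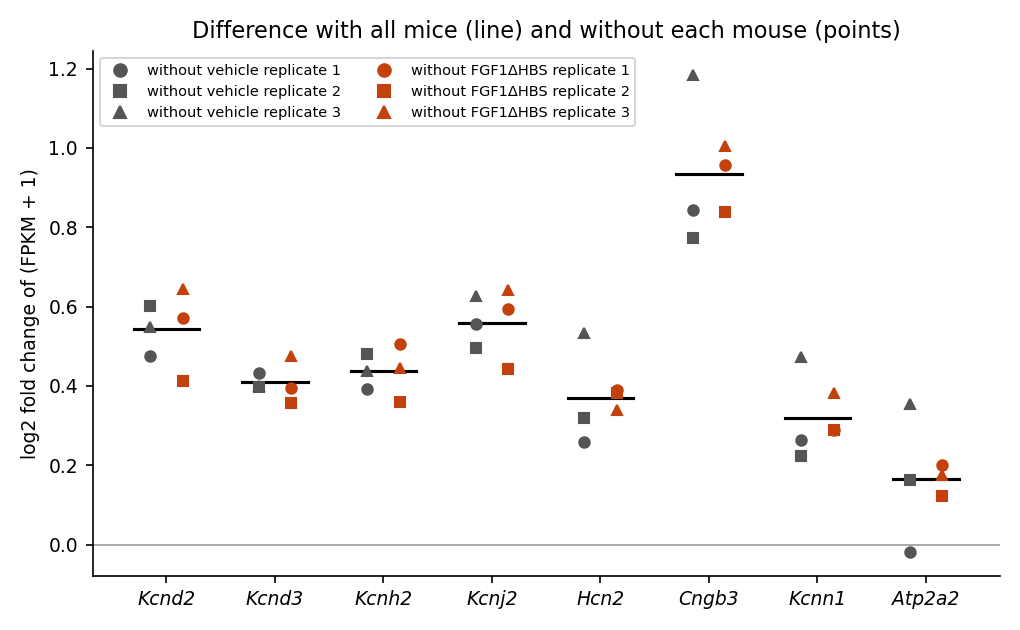
Log2 fold change of (FPKM + 1) with all 6 mice (line) and without each mouse in turn (points) for 8 genes. *Kcnd2*, *Kcnd3*, *Kcnh2* and *Kcnj2* stay above 0.35 throughout, whereas *Atp2a2* passes below 0 without vehicle replicate 1.

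The ion pumps were the most abundant members, and neither was at an unadjusted p-value under 0.05. *Atp2a2* (chromosome 5, 122453513 to 122502225) was at 1741, 2238 and 2917 FPKM with vehicle and at 2401, 2684 and 2491 FPKM with FGF1ΔHBS. The vehicle mice spanned a wider range than the treated mice and enclosed them. The test gave a log2 fold change of 0.17 ± 0.18 (SE, 95% interval -0.27 to 0.60, limma adjusted p = 0.691). It was -0.018 without vehicle replicate 1 and -0.21 with quantile normalization, so it has no stable direction. *Atp1b1* (chromosome 1, 164437109 to 164458355) was at 94.1, 109 and 114 FPKM with vehicle and at 130, 114 and 119 FPKM with FGF1ΔHBS. Only FGF1ΔHBS replicate 2 lay within the range of the vehicle mice, just under vehicle replicate 3. Its log2 fold change was 0.19 ± 0.0934 (SE, limma adjusted p = 0.349). The locus that the table gives for *Atp1b1* begins at 164289800 and takes in *Nme7* and part or all of *Blzf1*, so reads of these genes may be shared with it.

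The other tested members overlapped between the groups. *Kcnn1*, which encodes the calcium-activated potassium channel SK1, was at 2.91, 2.69 and 4.22 FPKM with vehicle and at 4.50, 4.50 and 3.84 FPKM with FGF1ΔHBS. Vehicle replicate 3 lay among the treated mice, and the log2 fold change was 0.32 ± 0.15 (SE, limma adjusted p = 0.321), or 0.47 without that mouse. *Scn4a*, the sodium channel of skeletal muscle, was at 2.75, 2.65 and 3.71 FPKM with vehicle and at 2.07, 2.68 and 1.81 FPKM with FGF1ΔHBS. It had the most negative log2 fold change of the 14, -0.34 ± 0.15 (SE, limma adjusted p = 0.302), with FGF1ΔHBS replicate 2 inside the vehicle range. The table places *Scn4a* only at 106349455 to 106353288 of chromosome 11. This is the 5′ end of a gene on the minus strand that spans 106318592 to 106353288 in GENCODE. The value may thus not stand for the whole transcript. *Ano6*, a phospholipid scramblase of the anoctamin family, was at 6.32, 6.03 and 3.83 FPKM with vehicle and at 4.52, 4.40 and 4.57 FPKM with FGF1ΔHBS. Vehicle replicate 3 lay below all treated mice and the other vehicle mice above them. Its log2 fold change was -0.19 ± 0.16 (SE, limma adjusted p = 0.584), or -0.38 if vehicle replicate 3 is left out. *Ano8*, another anoctamin, stayed between 5.32 and 6.02 FPKM in all mice (log2 fold change 0.035, 95% interval -0.16 to 0.23). Its locus overlaps *Dda1* on the other strand, and the strand of the reads is not given in the sources used here. *Kcnip3*, a calcium-binding partner of Kv4 channels, was at 1.74, 1.38 and 0.685 FPKM with vehicle and at 1.27, 1.04 and 1.12 FPKM with FGF1ΔHBS. *Cacnb3*, an auxiliary subunit of calcium channels, was at 1.75, 1.68 and 0.766 FPKM with vehicle and at 1.68, 1.09 and 1.47 FPKM with FGF1ΔHBS. In both genes vehicle replicate 3 was the lowest of the 6 mice and the treated mice lay between the extremes. Their log2 fold changes, -0.054 (95% interval -0.49 to 0.38) and 0.030 (95% interval -0.43 to 0.49), changed sign when single mice were left out.

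The 22 members with a mean under 1 FPKM included calcium channel pores of neurons (*Cacna1a*, *Cacna1b*, *Cacna1e*), the T-type channel *Cacna1h*, potassium channels known mainly from nerve (*Kcna6*, *Kcnb2*, *Kcnc1*), and the channels *Trpc2* and *Trpc4*. Of these 22, 21 had no value over 1 FPKM, and *Cacna1a* reached 1.15 FPKM in vehicle replicate 3. *Kcnj6* was listed at 0 in every mouse except FGF1ΔHBS replicate 1, at 0.0131 FPKM. *Ano7* was listed at 0 in all 3 treated mice and in vehicle replicate 2. *Scn3a*, a voltage-gated sodium channel, was at 0.456, 0.364 and 0.358 FPKM with vehicle and at 0.489, 0.532 and 0.591 FPKM with FGF1ΔHBS, and was the only one of the 22 whose groups did not overlap. Among all 2091 genes with a mean under 1 FPKM, 3.87% separated the groups higher and 4.88% lower, so 1 of 22 is near the background. *Cacna1a*, the P/Q-type pore, was at 0.601, 0.924 and 1.15 FPKM with vehicle and at 0.369, 0.646 and 0.698 FPKM with FGF1ΔHBS, which overlapped by 1 vehicle mouse. Further members were *Kcnj4*, *Kcnrg*, *Kcnip1*, *Cacnb4* and *Kcne1l*, with means from 0.228 to 0.520 FPKM, and *Kcnj1*, *Kcnj16* and *Ryr1*.

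In the low genes *Kcnj16* and *Ryr1*, 1 mouse stood above all others. *Kcnj16* and *Kcnj1*, inward rectifiers known from the kidney tubule as Kir5.1 and ROMK, had their highest values in FGF1ΔHBS replicate 3, at 0.446 and 0.147 FPKM. In the other mice *Kcnj16* did not exceed 0.103 FPKM. *Kcnj1* did not follow a single mouse. It was at 0.0903 FPKM in FGF1ΔHBS replicate 2, at 0 in FGF1ΔHBS replicate 1 and at 0.0121 to 0.0145 FPKM with vehicle. Of 7 kidney markers, 1 was in the table, the cotransporter *Slc12a1*, which was at 0.844 FPKM in FGF1ΔHBS replicate 3 and at 0 to 0.138 FPKM elsewhere. *Ryr1*, the calcium release channel of skeletal muscle, was at 0.214 FPKM in vehicle replicate 3 and at 0.0202 to 0.0588 FPKM in the other mice. Of 6 skeletal muscle markers, *Tnni2* was in the table, at 1.14 FPKM in vehicle replicate 3 and at 0.476 to 1.31 FPKM in the others. The part of other tissue in these values was not tested.

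Genes that work with these channels gave no common direction. Of 48 genes of calcium handling and channel partners, 8 were in the table and tested, none passed the adjusted threshold, and 2 were higher and 0 lower at an unadjusted p-value under 0.05, against 7.10% and 10.0% of all genes tested. *Fxyd1*, phospholemman, a regulator of the sodium pump, was at 202, 225 and 210 FPKM with vehicle and at 265, 254 and 239 FPKM with FGF1ΔHBS (log2 fold change 0.25, adjusted p = 0.154 by limma). *Rem1*, a small GTPase that restrains calcium channels, was at 3.26, 3.29 and 2.52 FPKM with vehicle and at 3.76, 3.96 and 3.91 FPKM with FGF1ΔHBS (log2 fold change 0.28, adjusted p = 0.240 by limma). In both genes every treated mouse was above every vehicle mouse. *Micu2*, also of this list, went the other way. It was at 43.6, 45.5 and 40.9 FPKM with vehicle and at 38.7, 39.9 and 39.6 FPKM with FGF1ΔHBS. Among all genes tested, the groups did not overlap in 10.7%, higher with FGF1ΔHBS, and in 13.6%, lower. The calcium store protein *Casq2*, at 346, 378 and 399 FPKM with vehicle and 367, 332 and 334 FPKM with FGF1ΔHBS, overlapped between the groups. Of 21 genes of the intercalated disc, 8 were tested. At an unadjusted p-value under 0.05, *Dsc2* was higher (log2 fold change 0.32) and *Dsp* (-0.18), *Xirp2* (-0.55) and *Ldb3* (-0.31) were lower, 1 and 3 of 8 against the same shares, with none past the adjusted threshold. The median log2 fold change was -0.013 over the first list and 0.023 over the second, near the -0.021 of all genes tested.

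The makeup of the tissue was checked with marker lists, of which few genes were in the table. The cardiomyocyte markers *Tnnt2* and *Actc1*, 2 of 6, summed to 8646 to 10050 FPKM with vehicle and 8877 to 10306 FPKM with FGF1ΔHBS, and these defining genes of the labelled heart tissue were abundant in every mouse. The fibroblast marker *Dcn*, 1 of 6, was at 284, 288 and 154 FPKM with vehicle and at 409, 368 and 431 FPKM with FGF1ΔHBS. It separated the groups (log2 fold change 0.79, limma adjusted p = 0.154). The smooth muscle and pericyte markers *Acta2* and *Pdgfrb*, 2 of 6, summed to 18.7 to 27.6 FPKM with vehicle and 26.4 to 37.6 FPKM with FGF1ΔHBS. *Acta2* also separated the groups, at 10.3 to 14.1 FPKM against 17.5 to 27.3 FPKM (log2 fold change 0.82, limma adjusted p = 0.116). Of all genes tested, 10.7% separated the groups higher with FGF1ΔHBS and 13.6% lower. *Pdgfrb* was at 13.5, 12.3 and 8.34 FPKM with vehicle and at 9.55, 8.84 and 10.3 FPKM with FGF1ΔHBS, which overlapped (log2 fold change -0.21). The atrial marker *Sln* was at 27.4 FPKM in vehicle replicate 2 and at 0 to 0.240 FPKM in the other 5 mice. *Nppa*, also of the atria and of stressed ventricle, was highest in that mouse too. It was at 170, 431 and 62.2 FPKM with vehicle and at 75.4, 22.7 and 47.4 FPKM with FGF1ΔHBS. These values overlapped, with a log2 fold change of -1.91 (limma adjusted p = 0.231). Without vehicle replicate 2 the log2 fold changes of *Kcnd2*, *Kcnd3*, *Kcnh2* and *Kcnj2* were 0.60, 0.40, 0.48 and 0.50. Those of *Hcn2* and *Cngb3* were 0.32 and 0.77. Whether atrial tissue contributed to the channel values was not tested. The adipocyte marker *Adipoq*, 1 of 4, was at 0 to 0.217 FPKM with vehicle and 0.246 to 1.21 FPKM with FGF1ΔHBS. These did not overlap, but its mean was under 1 FPKM and it was not tested. The endothelial marker *Tie1*, 1 of 6, was at 11.6 to 23.1 and 11.4 to 16.4 FPKM, which overlapped. No macrophage, conduction, nerve, liver or red blood cell marker of the lists was analysed here. The part of the cells that express *Dcn*, *Acta2* or *Pdgfrb* in the channel values was not tested.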

How the data were processed

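RNA-Seq of cardiac tissue was analysed from 3 vehicle and 3 FGF1ΔHBS-treated *db/db* mice. The authors deposited FPKM values, 1 per gene and library, without pooling of replicates. The submitters' processing notes name HISAT2 2.0, StringTie 1.3.0, Bowtie 0.12.2 and the build mm8, with no role or order, and the paper names Trimmomatic. The loci in the table lie on GRCm38: 4111 of 4132 identifiers were in GENCODE M21, 4106 of them on the same chromosome. For 13 of the 36 members the locus differed from GENCODE by over 1 kb at an end. The labels describe paired-end libraries, and their library text speaks of adipose RNA, whereas the paper gives single-end reads. The table ends partway through the annotation of its last gene, so it is only part of a transcriptome, and FPKM were used as deposited.

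Values were transformed to log2(FPKM + 1), and limma 3.58.1 (R 4.3.3, eBayes with trend, no block) was run on the 2041 genes whose mean reached 1 FPKM, with Benjamini-Hochberg adjustment and a threshold of 0.05. The fit was tested on simulated data. For single genes an exact permutation test of the difference in group means, two-sided, was added. The members and lists were chosen with earlier results of these data known. Named genes were members past either threshold, the 5 largest differences in each direction, the 10 most abundant members and a list of main cardiac channels; *Cacnb3* and the low members were added to account for the rest, and a few genes are not reported here. None of the 17 subunit ratios planned could be formed, because a partner was not analysed here. Alternatives were a pseudocount of 0.1, no minimum, a minimum of 5 FPKM, median ratio scaling, quantile normalization, robust eBayes, the replicate number as a block, leaving out each mouse and, chosen after the values were seen, GC correction.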

Additional observations from a re-analysis of the deposited data

How the results depend on the processing

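The count of members past the adjusted threshold was 0 (limma), with 6 at an unadjusted p-value under 0.05, and it stayed 0 in every alternative except without 1 mouse, where it ranged from 0 to 3, the 3 coming without vehicle replicate 3. The members at an unadjusted p-value under 0.05 numbered 2 with a minimum of 5 FPKM, where 5 were tested, and from 5 to 10 with each mouse left out, 10 without vehicle replicate 3. Of those 10, 9 were higher with FGF1ΔHBS. Without vehicle replicate 2, and without FGF1ΔHBS replicate 2, 5 of 6 were higher. The share of all genes at this level was not counted in these fits or with the replicate block. These counts therefore do not set the members apart. Over all genes, 2 passed the adjusted threshold. This was 4 with a pseudocount of 0.1, 5 with robust eBayes, 1 with median ratio scaling, quantile normalization or GC correction, 0 without a minimum, and from 0 to 82 with each mouse left out, 82 without vehicle replicate 3. With the replicate block it was 0 genes, and 6 members were at an unadjusted p-value under 0.05. Deviations of same-numbered mice correlated at -0.0078, -0.16 and -0.22, and replicate numbers were therefore not taken as pairs. *Atp2a2* was at -0.21 with quantile normalization and *Kcnip3* at 0.0027 with GC correction, opposite to their full values. With each mouse left out, *Atp2a2* ranged from -0.018 to 0.35, *Kcnip3* from -0.25 to 0.097 and *Cacnb3* from -0.18 to 0.14. Apart from the minimum of 5 FPKM, which tests fewer genes, the cause was not tested. Only relative depth could be read from FPKM, and zeros carry no detection limit here.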
